A study of Mus musculus with 4 samples.

Results

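The 35 genes described here act when proteins in the endoplasmic reticulum (ER) are not folded. They were taken by name as ER chaperones, enzymes of oxidative folding, components of ER-associated degradation (ERAD) and the translocon, the stress sensors with Xbp1, and the PERK/ATF4 arm. Of the 35 names, 33 were found as gene names of non-control probes, with 59 probes in all, among 26909 genes that had a value on all 4 arrays. All 33 had a value on all 4 arrays and 32 were well above background on all 4, the scanner software's call for a spot brighter than its surroundings. Derl3, a component of ERAD, did not reach that call on any of the 4, so no fold is given for it. Dnajc3 and Ppp1r15a were listed under older symbols, Dnajc3a and Myd116, and their values are given apart from the counts.

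The cells were 3T3-L1, a clonal mouse line of preadipocytes that turn into adipocytes when induced with hormones. All 4 conditions received insulin at 10 ug/ml, dexamethasone at 1 uM, IBMX at 0.5 uM and a final 0.1% of DMSO, and RNA was taken on day 2. The control received DMSO alone, and the treatments were bilberry extracts at 100 ug/ml, delphinidin at 100 nM and cyanidin at 100 nM, the last 2 being anthocyanidins, the pigments of bilberry. One-color Agilent arrays were used with 1 array per condition, so no difference here has a replicate check, and all 3 ratios to DMSO share the same control array.

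The ER folds secreted and membrane proteins, and unfolded proteins there start the unfolded protein response. Its sensors are ATF6, IRE1 (the product of Ern1) and PERK (the product of Eif2ak3). ATF6 and the spliced form of XBP1 turn on chaperones and ERAD genes, while PERK slows translation and favors the translation of ATF4, a transcription factor for amino acid and stress genes that other kinases can also raise. Differentiating adipocytes secrete large amounts of protein and are known to use this response.

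Promoter windows from RefSeq on GRCm38.p6, from 250 bases before to 50 bases after each gene's start, were at hand for 32 of the 35 genes and were searched on both strands for known response elements. The ER stress response element (ERSE, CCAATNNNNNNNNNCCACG), which ATF6 and XBP1 recognize, was found in 10 of the 32 genes (31.2%), against 0.119% of all 32851 windows. These were Hspa5, Hsp90b1, Calr, Canx, Dnajc3, Pdia6, Creld2, Ero1lb, Syvn1 and Derl3, and Hsp90b1 had a match on each strand. ERSE-II (ATTGGNCCACG) was found in Dnajb11 and Herpud1 and in 0.0365% of all windows. The unfolded protein response element in the form TGACGTGG was in none of the 32 and in 0.676% of all windows. The C/EBP-ATF element (TGATGNAA), through which ATF4 acts, was in 5 of the 32 genes, Herpud1, Atf3, Trib3, Asns and Chac1, and in 3.97% of all windows. None of these motifs contains another. ERSE and ERSE-II end in the same CCACG, and a match only says that these letters are present. A gene was counted if any of its windows matched, while the background was counted by window, so these shares differ in unit. The genes were also chosen as part of this response, so their higher share is no independent result.

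The 250 bases before the start are shown for Hspa5 and Chac1, since they carry the element of the chaperone genes and that of the ATF4 targets described below. Capitals mark the fixed letters of the match, on the strand of the gene for Hspa5 (chr2:34771840-34772089, plus strand) and on the opposite strand for Chac1 (chr2:119350992-119351241, plus strand).
Hspa5: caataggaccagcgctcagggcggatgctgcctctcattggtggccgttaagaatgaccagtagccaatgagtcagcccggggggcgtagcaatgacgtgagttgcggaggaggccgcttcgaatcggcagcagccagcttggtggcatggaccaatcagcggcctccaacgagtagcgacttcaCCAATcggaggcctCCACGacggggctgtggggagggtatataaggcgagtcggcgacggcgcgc
Chac1: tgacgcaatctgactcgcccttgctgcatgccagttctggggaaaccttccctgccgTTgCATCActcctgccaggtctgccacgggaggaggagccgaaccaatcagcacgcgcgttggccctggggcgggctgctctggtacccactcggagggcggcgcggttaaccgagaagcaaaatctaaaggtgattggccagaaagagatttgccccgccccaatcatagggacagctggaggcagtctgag

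Shorter stretches show the matches of other chaperone and folding genes and of the ERAD gene Syvn1 (ERSE), of Herpud1 (ERSE-II) and of the other ATF4 targets with a match before the start (C/EBP-ATF), each with 12 bases on either side and read along the gene. The Calr site, the second Hsp90b1 site and the Atf3 site have the motif on the opposite strand, so their capitals spell its reverse complement. The Hsp90b1 sites end at positions -194 and -89, counted from the start.
Hsp90b1 (chr10:86705626-86705668, minus strand): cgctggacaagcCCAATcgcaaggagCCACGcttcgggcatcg
Hsp90b1 (chr10:86705521-86705563, minus strand): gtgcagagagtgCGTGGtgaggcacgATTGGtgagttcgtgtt
Calr (chr8:84847063-84847105, minus strand): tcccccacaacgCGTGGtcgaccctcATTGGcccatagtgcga
Pdia6 (chr12:17266479-17266521, plus strand): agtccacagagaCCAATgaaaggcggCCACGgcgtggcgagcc
Syvn1 (chr19:6046520-6046562, plus strand): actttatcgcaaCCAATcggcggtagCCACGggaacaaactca
Herpud1 (chr8:94386365-94386399, plus strand): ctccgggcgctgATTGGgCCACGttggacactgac
Asns (chr6:7693213-7693244, minus strand): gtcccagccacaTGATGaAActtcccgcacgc
Atf3 (chr1:191183424-191183455, minus strand): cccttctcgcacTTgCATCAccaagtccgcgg

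Values below are processed signals divided by the 75th percentile of their array, and each gene is read from its brightest probe among those with an unmarked spot on all 4 arrays. Canx and Hsp90b1 each have a brighter probe with spots that the software called outliers on some arrays. The percentile was 861 on the DMSO array, 576 under bilberry, 1009 under delphinidin and 1016 under cyanidin. The median log2 ratio to DMSO over the 14372 genes well above background on all arrays was 0.16 under bilberry, -0.03 under delphinidin and -0.01 under cyanidin. The 10 spike-in controls, RNA added at known amounts, were brighter on the bilberry array by a median of 0.96 on the log2 scale before scaling, and scaling to them put the median of all genes at -1.38 with bilberry and at 0.22 with each anthocyanidin. Directions given for bilberry are therefore relative to the other genes on the array. All 7 adipocyte markers and all 5 preadipocyte markers checked were well above background on all arrays, while 0 of 4 endothelial markers, 2 of 5 macrophage markers (Csf1r and Cd14) and 1 of 4 muscle markers (Des) were.

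With bilberry extracts, 3 of the 32 genes were over 2-fold higher than with DMSO, all of them targets of the PERK/ATF4 arm, beside 4.52% of all genes tested. These were Sesn2, Chac1 and Trib3, and 0 of the 32 were over 2-fold lower, beside 6.64% of all genes. With delphinidin, 0 of the 32 were over 2-fold higher and 0 lower, beside 1.14% and 1.52% of all genes, and with cyanidin again 0 and 0, beside 0.578% and 1.93%. The median log2 ratio of the 32 genes was 0.38 under bilberry, 0.23 under delphinidin and 0.15 under cyanidin. Relative to all genes these medians were 0.22, 0.26 and 0.16. The bilberry value changed sign to -0.24 under a background correction fitted over all spots and to -0.04 without a filter on dim probes. The values of delphinidin and cyanidin kept their sign under all alternatives tried, but ran from 0.20 to 0.42 and from 0.078 to 0.34. Constant scalings of an array, such as that to the spike-in controls, cannot change a median relative to all genes. Neither can the deposited table, which held the same values, so these alternatives are no check on such medians here or below. Of the 32 genes, 23 lay above the median of all genes with bilberry, 25 with delphinidin and 22 with cyanidin.

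**Figure D1:**
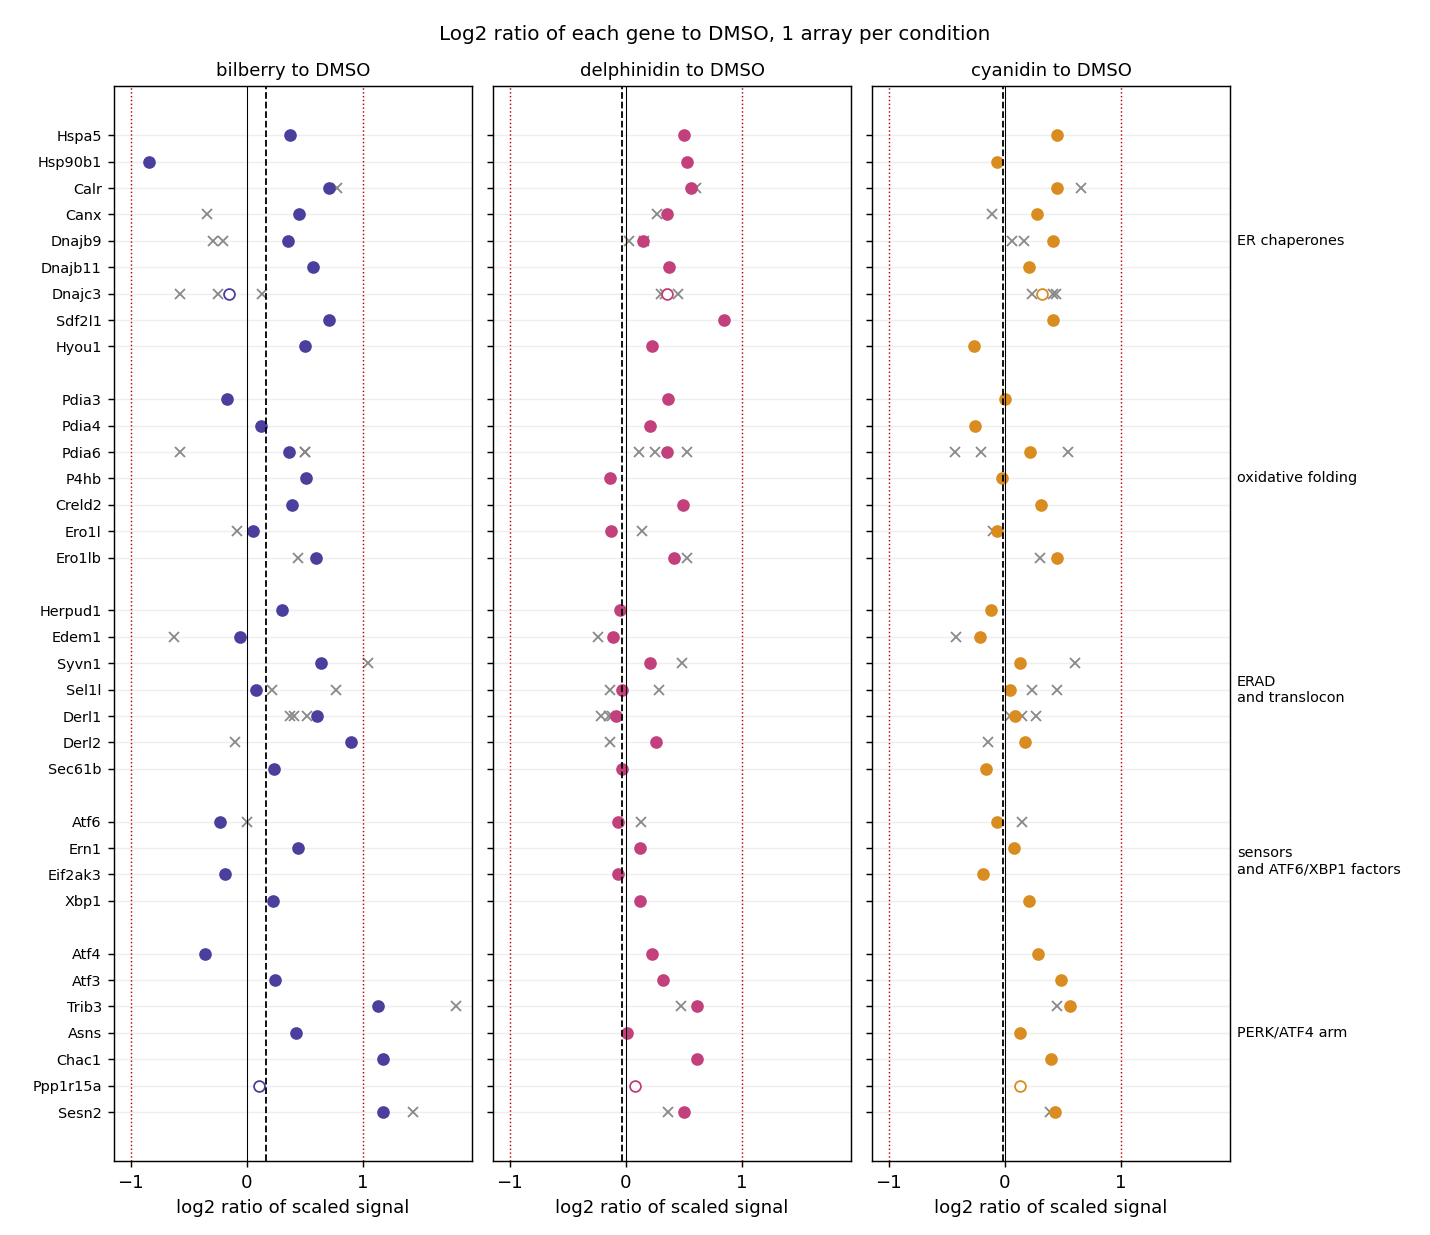
Log2 ratio of scaled signal to DMSO for each gene that was well above background on all 4 arrays, grouped by role, with 1 array per condition. Circles are the probe read here (open for the 2 genes under older symbols), crosses are other probes of the gene, dashed lines the median of all genes and dotted lines 2-fold. With 75th percentile scaling Sesn2, Chac1 and Trib3 lie past the upper line with bilberry (log2 ratios of 1.18, 1.17 and 1.13), where scaling to the spike-in controls turns them to -0.36, -0.37 and -0.41.

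The PERK/ATF4 arm had the highest bilberry median of the 5 groups, a log2 ratio over 6 genes of 0.78, and its medians were 0.41 under delphinidin and 0.42 under cyanidin. Relative to all genes the 3 medians stayed above 0 under all alternatives that could change them, with a lowest value of 0.26 for bilberry once Ppp1r15a was added. Sesn2, which encodes the stress protein sestrin 2 that restrains mTORC1, had scaled signals of 13.2 under DMSO, 30.0 under bilberry, 18.8 under delphinidin and 17.9 under cyanidin. Its signal was lowest with DMSO and 2.26 times as high with bilberry, and the log2 ratios were 1.18, 0.51 and 0.43. Its second probe gave 1.44, 0.36 and 0.39.

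Chac1, which encodes an enzyme that breaks down glutathione, had scaled signals of 1.32 under DMSO, 2.98 under bilberry, 2.02 under delphinidin and 1.75 under cyanidin. The order of the arrays was that of Sesn2, with log2 ratios of 1.17, 0.61 and 0.40 on the 1 probe it has. Trib3, a pseudokinase that binds ATF4 and AKT, had 0.776 under DMSO, 1.70 under bilberry, 1.19 under delphinidin and 1.15 under cyanidin. Its log2 ratios were 1.13, 0.62 and 0.57, and its second probe gave 1.80, 0.48 and 0.45. The probes read here lie on mm8 at chr4:131764135-131764194 for Sesn2, chr2:119045695-119045754 for Chac1 and chr2:152029060-152029119 for Trib3, per the file headers. Exon and UTR annotation of that build was not used here.

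Among all genes tested, the bilberry ratios of Sesn2, Chac1 and Trib3 lay at percentiles 97.5, 97.4 and 97.1. With delphinidin they lay at 94.8, 96.2 and 96.3, and with cyanidin at 93.3, 92.2 and 96.7. The bilberry calls depended on the processing. All 3 were under 2-fold when the background correction was fitted over all spots, with log2 ratios of 0.57 for Sesn2, 0.80 for Chac1 and 0.81 for Trib3, and Sesn2 was at 0.92 under quantile normalization.

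Atf4 itself had scaled signals of 3.69 under DMSO, 2.88 under bilberry, 4.31 under delphinidin and 4.51 under cyanidin. It was lowest with bilberry, at a log2 ratio of -0.36 that stayed below 0 under all alternatives, and highest with cyanidin (0.29, and 0.22 with delphinidin). Asns, asparagine synthetase, had log2 ratios of 0.43, 0.01 and 0.13, and Atf3, a stress-induced transcription factor, had 0.24, 0.32 and 0.48. Ppp1r15a, which directs a phosphatase back to eIF2 alpha, had 0.11, 0.08 and 0.13.

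**Figure D2:**
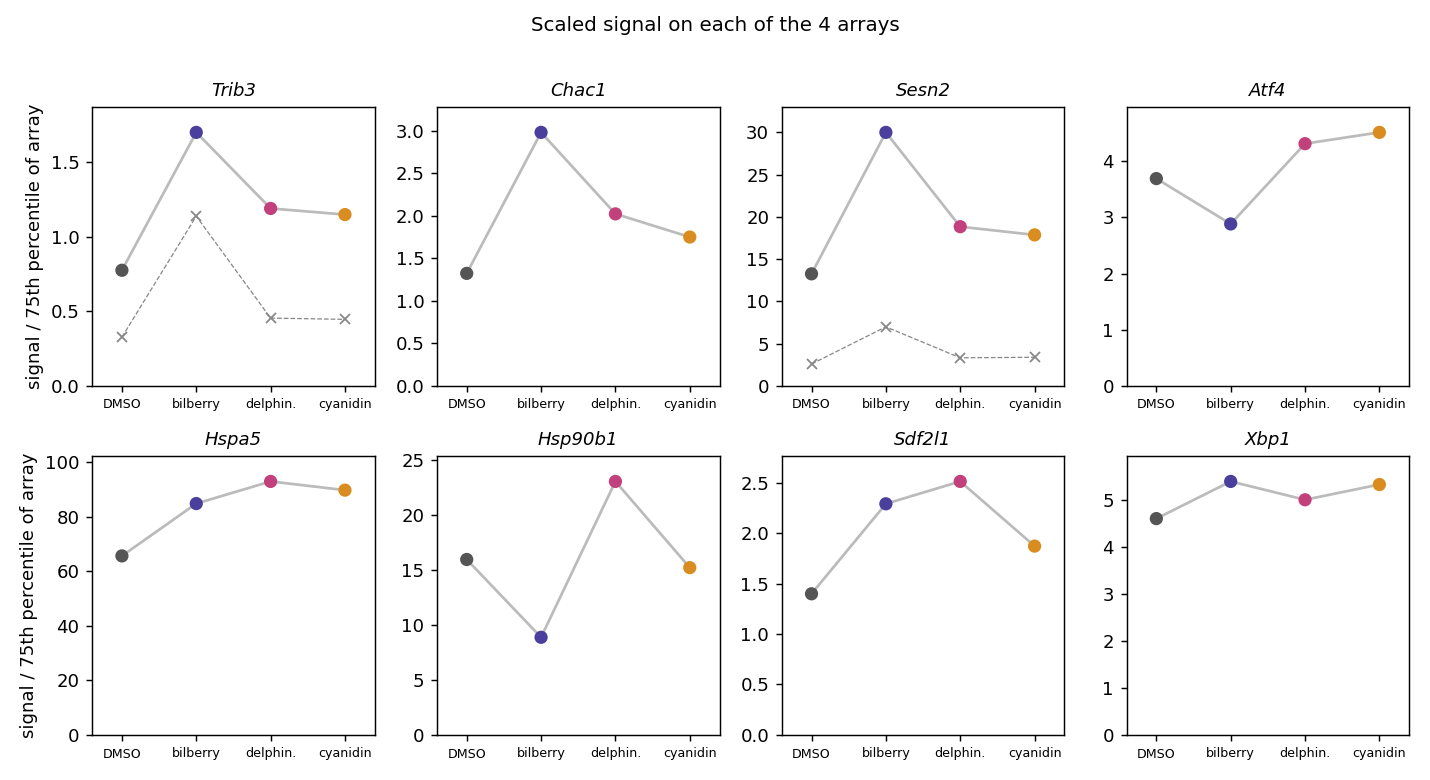
Scaled signal (processed signal over the 75th percentile of the array) on each of the 4 arrays for 8 genes, each panel on its own linear axis from 0. Circles are the probe read here and crosses a second probe with a value on all arrays. Trib3, Chac1 and Sesn2 were highest with bilberry (1.70, 2.98 and 30.0), an order that does not hold under spike-in scaling, while Atf4 and Hsp90b1 were lowest there (2.88 and 8.86).

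The ER chaperones had a median log2 ratio over 8 genes of 0.47 under bilberry, 0.44 under delphinidin and 0.35 under cyanidin. Relative to all genes these were 0.31, 0.47 and 0.36, and the background correction over all spots turned the bilberry value to -0.19. Reading each gene from its dimmest probe lowered the cyanidin value to 0.17. With delphinidin all 8 lay above the median of all genes, against 7 with bilberry and 6 with cyanidin. Hspa5, which encodes BiP, the main ER chaperone and a brake on the 3 sensors, had scaled signals of 65.6 under DMSO, 84.7 under bilberry, 92.9 under delphinidin and 89.7 under cyanidin. It was lowest with DMSO, at log2 ratios of 0.37, 0.50 and 0.45, and the bilberry value turned negative under spike-in scaling and the background correction over all spots. Its probe lies at chr2:34598119-34598178 on mm8. Calr, the lectin chaperone calreticulin, had 39.7, 64.8, 58.6 and 54.4 on the arrays in the same order, with log2 ratios of 0.71, 0.56 and 0.45.

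The members named next were picked after their values were seen. Sdf2l1, a partner of BiP, had the highest delphinidin ratio of the 32 genes. Its signals were 1.40 under DMSO, 2.29 under bilberry, 2.51 under delphinidin and 1.87 under cyanidin, and its log2 ratios were 0.71, 0.85 and 0.42. Hsp90b1, the ER member of the HSP90 family, had the lowest bilberry ratio. Its signals were 15.9 under DMSO, 8.86 under bilberry, 23.0 under delphinidin and 15.2 under cyanidin, so that it was below DMSO with bilberry (-0.85) and above it with delphinidin (0.53). The software called the spots of its second, brighter probe outliers for DMSO and for cyanidin, and with such spots kept that probe gave -1.02 with bilberry, 0.37 with delphinidin and, above DMSO rather than below it, 0.14 with cyanidin. Canx, Dnajb9, Dnajb11 and Hyou1, which aid folding or assist BiP, had bilberry ratios from 0.36 to 0.57. Other probes well above background on all arrays turned this direction for Canx (-0.34) and Dnajb9 (-0.20 and -0.29). Hyou1 was the chaperone gene furthest below DMSO with cyanidin (-0.27). Dnajc3, a co-chaperone that also restrains PERK, had log2 ratios of -0.15, 0.36 and 0.32.

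In oxidative folding, where protein disulfide isomerases are recharged by ERO1 oxidases, the medians over 7 genes were 0.37 under bilberry, 0.35 under delphinidin and -0.00 under cyanidin. Relative to all genes the delphinidin median was 0.39 and stayed above 0 under all alternatives that could change it. That of bilberry (0.20) changed sign under 4 of 14 alternatives and that of cyanidin (0.01) under 2. Of these 14, the constant scalings, the deposited table and the adding of older symbols could not change the medians. With bilberry the ratios ran from -0.17 for Pdia3 to 0.60 for Ero1lb, with delphinidin from -0.14 for P4hb to 0.50 for Creld2, and with cyanidin from -0.25 for Pdia4 to 0.46 for Ero1lb, which was at -0.19 as the mean of its 3 probes, 1 of them not well above background on any array. P4hb, the gene of protein disulfide isomerase, was above DMSO with bilberry (0.51) and slightly below with delphinidin (-0.14) and cyanidin (-0.03). Spike-in scaling turned the sign of all 3, and the background correction over all spots that of bilberry.

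ERAD components, which draw misfolded proteins out of the ER for the proteasome, and Sec61b of the translocon had medians over 7 genes of 0.30 under bilberry, -0.03 under delphinidin and 0.05 under cyanidin. Relative to all genes these were 0.14, 0.00 and 0.06, and each changed sign under at least 1 alternative. The highest of these genes with bilberry was Derl2, a channel component, with signals of 18.2 under DMSO, 34.0 under bilberry, 21.8 under delphinidin and 20.5 under cyanidin. Its bilberry log2 ratio was 0.90 on that probe but -0.10 on its other probe. Syvn1, the ubiquitin ligase of ERAD, had 0.64, 0.21 and 0.13. Its other probe gave 1.04 with bilberry but is dim, at scaled signals of 0.0313 with DMSO and 0.0645 with bilberry. Edem1, a lectin-like factor that marks glycoproteins for removal, was below DMSO in each treatment (-0.05, -0.11 and -0.22), though not under spike-in scaling for delphinidin and cyanidin.

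The sensors and Xbp1 had medians over 4 genes of 0.02, 0.03 and 0.01, or -0.14, 0.06 and 0.02 relative to all genes. With bilberry the genes went both ways, from -0.23 for Atf6 to 0.44 for Ern1. Xbp1 had scaled signals of 4.60 under DMSO, 5.40 under bilberry, 5.00 under delphinidin and 5.33 under cyanidin, and log2 ratios of 0.23, 0.12 and 0.21. Which of its spliced and unspliced transcripts the 1 probe reads was not checked. Atf6 had 1.59, 1.36, 1.52 and 1.52 on the arrays in the same order, with a bilberry ratio of -0.23 that was 0.00 on its other probe.

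Ern1 had scaled signals of 0.121 under DMSO, 0.165 under bilberry, 0.132 under delphinidin and 0.128 under cyanidin, with a bilberry ratio of 0.44. Eif2ak3 had 1.12 under DMSO, 0.981 under bilberry, 1.06 under delphinidin and 0.981 under cyanidin, with log2 ratios from -0.19 to -0.07. Neither sensor differed from DMSO by 2-fold on any array with 75th percentile scaling of the processed signal. With bilberry, Ern1 was at 1.47 with the background correction over all spots and at -1.10 under spike-in scaling, where Eif2ak3 was at -1.73. Ddit3, which encodes CHOP, the death-promoting factor downstream of ATF4, had signals of 1.74 with DMSO, 1.25 with bilberry and 1.80 with cyanidin, and the software called its delphinidin spot an outlier. Its log2 ratio was -0.47 with bilberry and 0.05 with cyanidin.

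Different probes of a gene allowed some check within an array. Of the 14 genes with at least 2 probes well above background on all arrays (34 probes), all probes had the same sign in 8 genes under bilberry and in 10 under each anthocyanidin. The median spread between probes of a gene was 0.48 on the log2 scale under bilberry, 0.14 under delphinidin and 0.22 under cyanidin. The widest bilberry spread was that of Pdia6, from -0.57 to 0.51. By comparison, ratios of replicate spots of the same probe had a median SD of 0.03 to 0.04, which covers spotting and hybridization within an array but not culture.

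Delphinidin and cyanidin were given at the same dose and day, and delphinidin carries an additional hydroxyl group on its B ring. In the 1 pair compared at a matched dose, 0 of the 32 genes were over 2-fold higher with delphinidin and 0 over 2-fold lower, beside 0.508% and 0.341% of all genes. The median log2 ratio of delphinidin to cyanidin was 0.08, or 0.10 relative to all genes, and the latter stayed above 0 under all alternatives that could change it. The highest values were in the chaperone and folding groups, with 0.60 for Hsp90b1, 0.50 for Hyou1, 0.46 for Pdia4, 0.43 for Sdf2l1 and 0.37 for Pdia3. The value of Hsp90b1 was 0.22 on its brighter probe, with marked spots kept. Dnajb9 had the lowest, at -0.27, but 0.09 on another probe. In the PERK/ATF4 arm the ratios ran from -0.16 for Atf3 to 0.21 for Chac1, with a median of -0.01. With 1 array for each compound no interval can be given, so whether the 2 compounds differed or acted alike on these genes was not tested. Bilberry extracts were dosed by mass, so the order of the bilberry array beside those of the compounds describes these arrays and is no comparison at a matched dose.

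**Figure D3:**
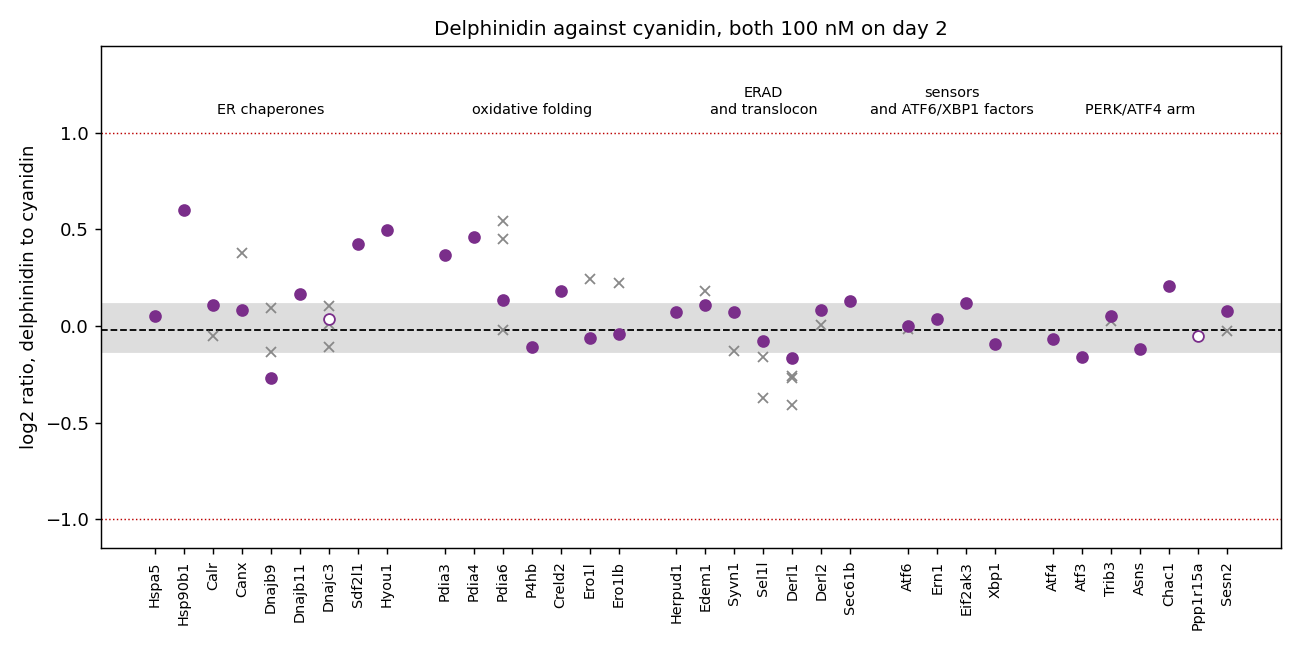
Log2 ratio of delphinidin to cyanidin for each gene, with 1 array for each compound. Circles are the probe read here (open for genes under older symbols), crosses other probes, the dashed line the median of all genes, the gray band their middle 50% and dotted lines 2-fold. The highest genes, Hsp90b1, Hyou1, Pdia4, Sdf2l1 and Pdia3, lie from 0.37 to 0.60, and no gene passes 2-fold.

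The genes with an ERSE in the promoter window could be set beside those without. The 8 that were found by name and measured had a median log2 ratio relative to all genes of 0.25 under bilberry, 0.49 under delphinidin and 0.31 under cyanidin. The 15 genes without an ERSE outside the PERK/ATF4 arm had 0.07, 0.15 and 0.01, and the 6 genes of that arm, none with an ERSE, had 0.62, 0.45 and 0.43. With delphinidin all 8 ERSE genes lay above the median of all genes, from 0.24 for Syvn1 to 0.60 for Calr, whereas with bilberry they ran from -1.01 for Hsp90b1 to 0.54 for Calr. Dnajb11 and Herpud1, with an ERSE-II, are counted here as without an ERSE. With them added to the 8, 9 of 10 lay above the median of all genes with delphinidin, the lowest being Herpud1 at -0.01. The groups with and without an ERSE overlapped in each treatment. The bound state of these elements was not measured.

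**Figure D4:**
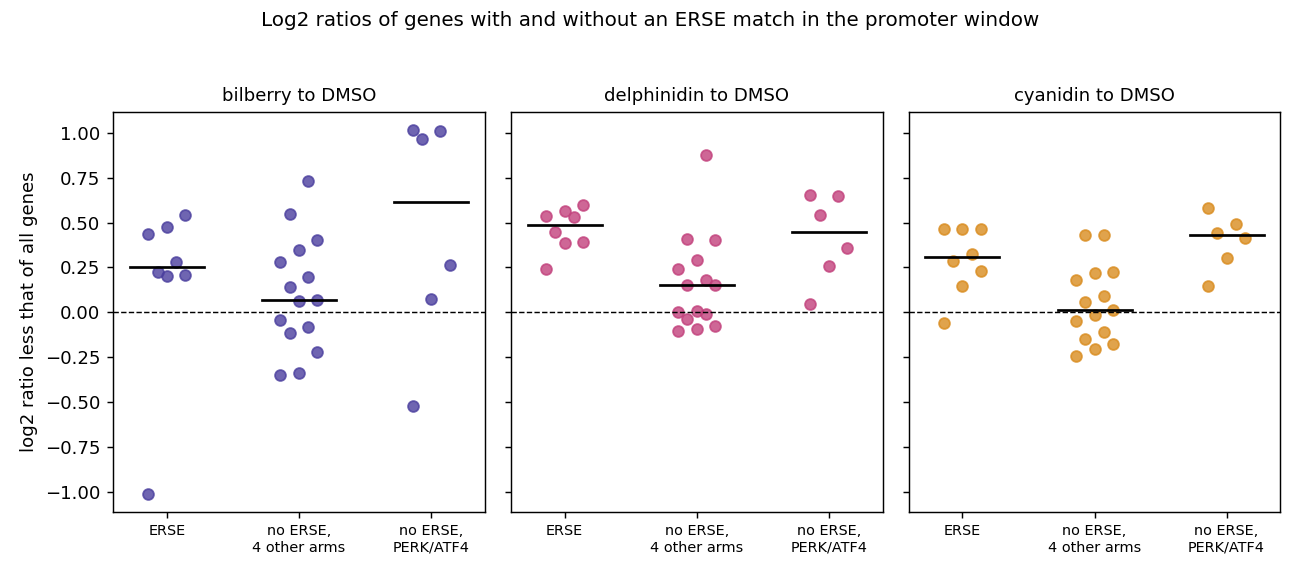
Log2 ratio to DMSO less the median of all genes, for genes with an ERSE match in the window, genes without one in the 4 other arms and genes of the PERK/ATF4 arm. Points are genes from 1 array per condition and bars are medians. With delphinidin the ERSE genes lie from 0.24 to 0.60 and the genes of the 4 other arms without one from -0.10 to 0.88.

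Other genes of the pathway were read from longer lists, in which, unlike above, genes under older symbols are counted. Among 27 other ATF4 targets, the median log2 ratio was 0.54 under bilberry, 0.16 under delphinidin and 0.25 under cyanidin, or 0.38, 0.19 and 0.26 relative to all genes. With bilberry 4 were over 2-fold higher and 1 lower, or 14.8% and 3.70%, beside 4.52% and 6.64% of all genes. With delphinidin 1 was higher, or 3.70%, beside 1.14%. Phgdh, which starts serine synthesis, had signals of 13.8 under DMSO, 36.3 under bilberry, 28.9 under delphinidin and 20.5 under cyanidin, with log2 ratios of 1.40, 1.07 and 0.57. Psat1 and Shmt2 of serine and glycine metabolism had bilberry ratios of 1.08 and 1.04, the amino acid transporter gene Slc7a5 had 1.07, and the stress protein gene Nupr1 had -1.22. A C/EBP-ATF match was in 8 of the 23 of these genes that had a window. Stc2, a secreted glycoprotein, was not well above background with DMSO and was at least 2.01-fold higher with delphinidin and at least 1.18-fold higher with cyanidin.

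Of 20 genes for entry into the ER and secretion, 0 were over 2-fold higher and 2 over 2-fold lower with bilberry, both of them partners of the translocon. These 10.0% stand beside 6.64% of all genes, and 2 genes are too few to set the list apart. Sec62, listed under its older symbol Tloc1, had a bilberry log2 ratio of -2.32. Its signals were 4.21 under DMSO, 0.846 under bilberry, 4.26 under delphinidin and 4.31 under cyanidin. Sec63 had -1.10 with bilberry and -0.03 and -0.08 with the anthocyanidins. Sec61a1, the channel itself, had 0.70 with bilberry.

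Of 20 other ER folding genes, Dnajc1, a J-domain partner of BiP, was over 2-fold lower with bilberry (-1.02), or 5.0% beside 6.64% of all genes. Relative to all genes the medians of these 20 were -0.003 under bilberry, 0.03 under delphinidin and -0.07 under cyanidin. Those of the 8 ER chaperones above were 0.31, 0.47 and 0.36, so the higher chaperone medians did not extend to this list. Of 13 other sensors and factors, Creb3l1, a membrane-bound transcription factor, had 1.06 under bilberry, 1.06 under delphinidin and 0.35 under cyanidin, and this 1 gene (7.69%) stands beside 4.52% of all genes higher with bilberry and 1.14% with delphinidin. The probes of Sec62, Sec63, Dnajc1 and Creb3l1 lie in the block of array rows that was left out as an alternative. So do the second probes of Sesn2 and Trib3 and the only probe of Sdf2l1. The probes read here for Canx, Dnajb9, Pdia6, P4hb, Herpud1, Edem1, Sec61b, Ern1, Xbp1 and Atf3 lie there too. The same holds for those of Dnajc3 and Ppp1r15a and for further probes, not read here, of several genes. The probes of Sesn2, Chac1 and Trib3 that were read here do not lie there. The part of position in the values of these genes was not tested. In 20 other ERAD genes and 13 cytosolic heat shock genes, 0 were past 2-fold in any comparison, beside 4.52% of all genes higher and 6.64% lower with bilberry and at most 1.93% in 1 direction in the other comparisons. The heat shock genes had medians of 0.28, 0.22 and 0.31, or 0.12, 0.26 and 0.32 relative to all genes. The other ERAD genes had 0.06, 0.06 and 0.13 relative to all genes.

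**Figure D5:**
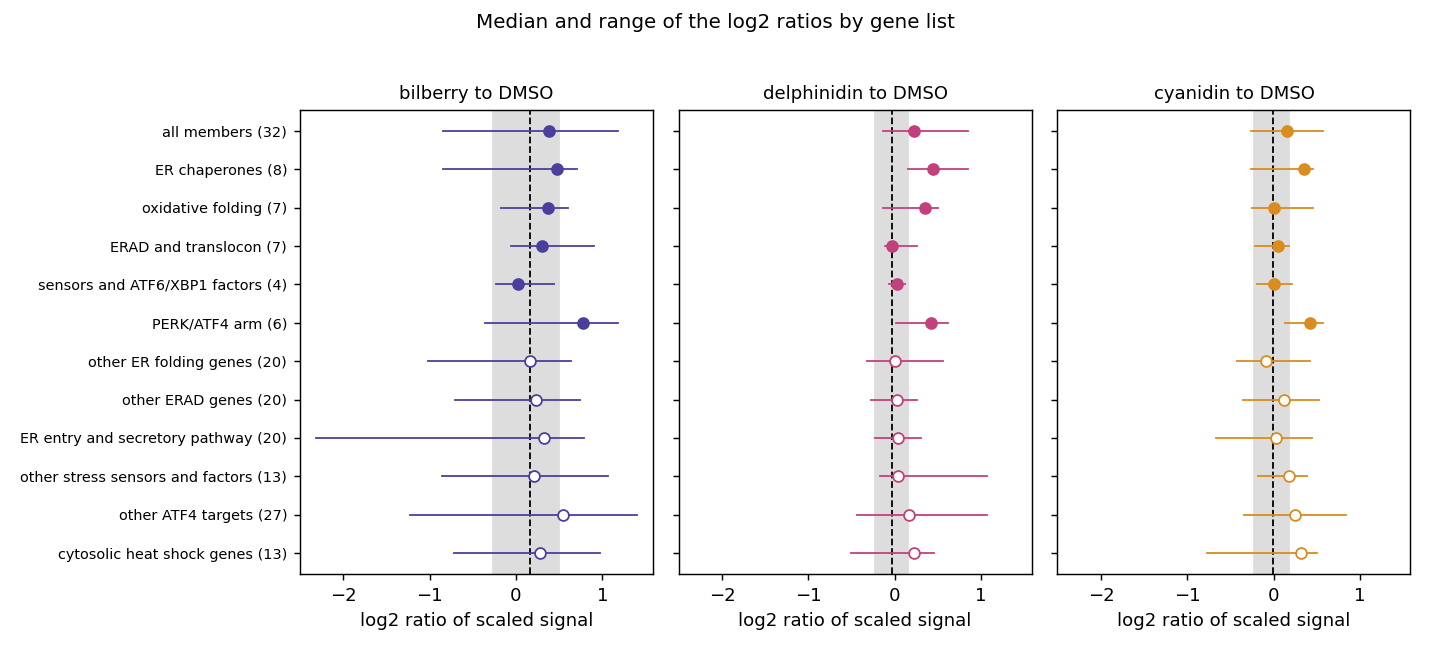
Median (circle) and range (line) of the log2 ratios to DMSO for the genes described here, by role (filled), and for other lists of the pathway (open), with the number of genes tested in brackets. The gray band is the middle 50% of all genes and the dashed line their median. The PERK/ATF4 arm (0.78) and the other ATF4 targets (0.54) have the highest medians with bilberry relative to the other lists, and scaling to the spike-in controls puts both below 0.

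Markers of differentiation moved in both directions with bilberry. The 7 adipocyte markers ran from -1.07 for Adipoq, the gene of the hormone adiponectin, and -0.95 for Fabp4, a fatty acid carrier, to 0.50 for Cebpa, an adipogenic transcription factor. Their median was 0.02, or -0.15 relative to all genes, and 4 of the 7 were above DMSO but 2 above the median of all genes. Relative to all genes their median was 0.23 with delphinidin and 0.33 with cyanidin, with 5 and 6 of the 7 above the median of all genes. Their log2 ratios ran from -0.19 for Fabp4 to 0.73 for Lpl with delphinidin, and from -0.04 to 0.78 for the same genes with cyanidin. The summed scaled signal of the 7 was 390.1 under DMSO, 269.1 under bilberry, 425.4 under delphinidin and 461.3 under cyanidin. The lower bilberry sum was that of Fabp4 (265 and 137), and the other 6 summed to 125.5 under DMSO and 131.9 under bilberry. The 5 preadipocyte markers had medians of -0.21, 0.02 and -0.21, and 2, 3 and 0 of them lay above the median of all genes. With bilberry they ran from -0.50 for Gata2, a transcription factor of preadipocytes, to 0.42 for the collagen gene Col1a1. Their sum was 156.5 under DMSO, 199.1 under bilberry, 169.0 under delphinidin and 135.5 under cyanidin, most of it from Col1a1 (108.0 under DMSO and 144.6 under bilberry), while Gata2, Gata3 and Pdgfra were lower with bilberry than with DMSO. For a marker in such a culture, fewer cells of a type and less RNA per cell cannot be told apart. The macrophage marker Csf1r had 1.16 with bilberry at scaled signals of 0.0172 and 0.0385. The sum of the 5 macrophage markers was 0.784 with DMSO and 0.745 with bilberry. Most of it was Cd14 (0.757 and 0.692), so the sum cannot be set against Csf1r. Of the 5, 3 were not well above background on any of the 4 arrays. The part of these shifts in the values of the stress genes was not tested.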

How the data were processed

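RNA of 3T3-L1 cells was taken on day 2 and hybridized to Whole Mouse Genome arrays of Agilent, 1 for each condition. The authors labeled total RNA with Cy3, scanned the arrays and extracted spots with Agilent Feature Extraction. The deposited scanner files hold intensities, of which the processed signal, already corrected for background, was used. The deposited intensity table of the whole series held the same values and served as an alternative.

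Signals were divided by the 75th percentile of the non-control spots of each array, and then control spots and spots marked as outliers were left out. The study's methods also divide by a 75th percentile, of all measurements and after a floor that was not set here. Log2 ratios were taken between arrays. Genes were read from their brightest probe with an unmarked spot on every array and tested where well above background on all 4 arrays. A ratio over 2 or under 0.5 was called, with no p-value, since each group has 1 array. At least N-fold values set the brighter signal against the lowest signal well above background on the dimmer array. The number of arrays limits the precision.

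The genes and lists were chosen with earlier results of these data known, from general knowledge of the pathway. By rule, members past 2-fold, Hspa5, Xbp1, Atf4, Ddit3 and the sensors were given on every array, other members by range, and other lists by genes past 2-fold, up to 4 a list. Other genes given singly, such as Calr, Derl2, Shmt2 and Sec61a1, were chosen after their values were seen. Older symbols were matched by RefSeq accession to GRCm38.p6, for 16 list genes. The calculations were tested on simulated data. Alternatives covered background correction (normexp with an offset of 50), normalization, filters, marked spots, probe rules, array rows and thresholds. Tools were Python 3.11.15, numpy 2.4.6, pandas 2.3.3, matplotlib 3.10.9, R 4.3.3 and limma 3.58.1.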

Additional observations from a re-analysis of the deposited data

How the results depend on the processing

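No paired analysis was possible because each condition has 1 array. Scaling to the spike-in controls reversed the bilberry log2 ratios of Trib3 (-0.41), Chac1 (-0.37) and Sesn2 (-0.36) and left 0 genes over 2-fold higher and 22 lower with bilberry, beside 0.104% and 77.8% of all genes, and 1 higher (Sdf2l1) with delphinidin, beside 2.58%. Hsp90b1 was the 1 gene over 2-fold lower with bilberry under the background correction over all spots, under quantile normalization and with marked spots kept, beside 4.29%, 6.91% and 6.51% of all genes. In the correction over all spots, 3 genes were still over 2-fold higher with bilberry, but these were Ero1lb, Ern1 and Atf3, beside 26.7% of all genes. That fit put the background mean of the bilberry array at -345, and at -5.65 once marked background spots were left out. At a threshold of 1.5, 9 genes were higher and 1 lower with bilberry (19.4% and 14.0% of all genes), 3 higher with delphinidin (4.08%) and 1 (Hsp90b1) higher with delphinidin than with cyanidin (2.06%), and at 3, 0 were higher with bilberry (0.717%). The median relative to all genes with bilberry was -0.24 with the correction over all spots, 0.16 with its refit, 0.12 under quantile normalization, -0.038 with no filter on detection and 0.17 with the mean of all probes. With delphinidin it was 0.22 under quantile normalization and 0.42 with no filter, and with cyanidin 0.12 and 0.34. Limited to genes with a mean scaled signal of at least 1 (29 members, chosen after seeing the data), the medians were 0.15, 0.20 and 0.078. The cause of these shifts was not tested. Of the counts and medians over all members, 165 stayed within 1.5 times or within the spread of replicate spots and 23 did not. Of those by group and named gene, 553 did and 184 did not, beside the 3 ratios over 2-fold (Trib3, Chac1 and Sesn2) whose sign turned. Sign changes of ratios under 2-fold are not counted in these 3. The probes of Ern1, Atf3 and Ero1lb are dim, which limits their values. With the background correction over all spots their bilberry log2 ratios were 1.47, 1.86 and 1.31, and the part of dimness in this was not tested.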
